A study of Homo sapiens with 15 samples.

Results

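The genes that divide and join mitochondria, MFN1, MFN2, OPA1, DNM1L, FIS1, MFF, MIEF1, MIEF2, OMA1 and YME1L1, were followed on the arrays of an oral cancer cell line with and without a cytoglobin transgene. The members were the non-control probes whose RefSeq accession belonged to one of these 10 genes, which gave 18 probes of the 42405 non-control probes on the array, and 10 of the 19483 genes that could be named this way. Each gene had 1 to 3 probes, and all 18 passed the filter on dim probes.

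Mitochondria form a network that is cut and rejoined all the time. Fission is carried out by the dynamin-related GTPase DRP1, the product of DNM1L, which is drawn from the cytosol to adaptors in the outer membrane and tightens around the organelle. Fusion of the outer membrane needs the mitofusins, and fusion of the inner membrane needs OPA1, whose long form is cleaved by the proteases OMA1 and YME1L1. A network shifted towards fission appears as short fragments, and stress on the inner membrane activates cleavage of OPA1.

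The cells were PE/CA-PJ41, a human oral squamous carcinoma line. The CYGB+ group carried a pCMV6-Neo plasmid with the human cytoglobin cDNA under its CMV promoter, introduced with Turbofectin, and came from stable clones picked with cloning rings under G418. The study's methods work with a clone of high cytoglobin called LST421, so the group is 1 clone as a model. The control group, NCE, is labelled as carrying the empty vector, whereas the study elsewhere calls it un-transfected. Cells of both groups spent 24 h in culture before RNA was taken, on 3 separate occasions. NCE had 3 biological replicates on 9 arrays and CYGB+ had 3 biological replicates on 6 arrays. The arrays of a biological replicate were averaged, so that n = 3 for each group in the main fit. Fits with slide as a term took every array singly, with biological replicate as a random block. On slide 2 alone NCE had 1 array, and leaving out a replicate made its group smaller. All values are log2 green-channel signals after normalization, a fold is 2 raised to a difference of these, and a difference is always CYGB+ minus NCE.

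The probe for cytoglobin itself did not separate the groups. It gave 11.85, 12.15 and 11.96 in NCE replicates 1, 2 and 3 and 11.38, 12.44 and 11.97 in CYGB+ replicates 1, 2 and 3, a difference of -0.05 ± 0.25 (SE, limma, adjusted p = 0.906). The study describes the parent line as not expressing cytoglobin, yet the probe averaged 11.99 in NCE and was well above background on all 15 arrays. Why it read so brightly in NCE was not tested. The files do not say whether this probe lies within the cDNA of the transgene. The groups are therefore given as labelled, and every direction below is that of the samples labelled CYGB+.

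Features of the whole array set bear on the values. All 8 arrays of slide 1 were NCE, while slide 2 held 6 CYGB+ arrays and 1 NCE array (replicate 1, repeat 3), so that slide and group can be told apart only through that array. A set of 3 arrays stood apart from the others of their group, with a root mean square distance from the group median of 0.734 for CYGB+ replicate 1 repeat 1, 0.451 for NCE replicate 3 repeat 2 and 0.378 for CYGB+ replicate 3 repeat 2, against 0.152 to 0.332 in the other 12. The 6 squamous markers KRT5, KRT14, KRT17, TP63, DSG3 and SFN were well above background on all 15 arrays. This held for 1 of 4 fibroblast markers, 0 of 3 endothelial markers and 1 of 3 blood markers. Some arrays passed for COL1A1 (7 NCE, 6 CYGB+), CDH5 (8 and 6), PECAM1 (1 and 0), PTPRC (3 and 2) and CD3E (1 and 2). PDGFRB, LUM and VWF passed on no array. From 48.9% to 57.3% of probes were well above background on an array.

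The promoters of the 3 genes with the smallest p-values below are shown as they stand in RefSeq (GRCh38.p14), 250 bases up to the base before the start of the gene, 5′ to 3′ on the strand of the gene. Capitals mark matches to CCAAT or to the ETS motif CCGGAAG on either strand. DNM1L lies at chr12:32679051-32679300 on the plus strand, FIS1 at chr7:101245082-101245331 on the minus strand and MIEF1 at chr22:39502040-39502289 on the plus strand.
DNM1L: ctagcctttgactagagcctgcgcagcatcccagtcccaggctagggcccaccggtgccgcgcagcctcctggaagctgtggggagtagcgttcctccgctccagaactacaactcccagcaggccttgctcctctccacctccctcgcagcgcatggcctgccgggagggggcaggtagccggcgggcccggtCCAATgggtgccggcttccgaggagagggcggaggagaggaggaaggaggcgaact
FIS1: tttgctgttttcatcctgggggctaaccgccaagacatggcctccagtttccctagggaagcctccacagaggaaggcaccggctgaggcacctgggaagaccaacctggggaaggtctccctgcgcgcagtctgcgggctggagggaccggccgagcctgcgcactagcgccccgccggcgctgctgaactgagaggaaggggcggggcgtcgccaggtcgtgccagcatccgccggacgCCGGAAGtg
MIEF1: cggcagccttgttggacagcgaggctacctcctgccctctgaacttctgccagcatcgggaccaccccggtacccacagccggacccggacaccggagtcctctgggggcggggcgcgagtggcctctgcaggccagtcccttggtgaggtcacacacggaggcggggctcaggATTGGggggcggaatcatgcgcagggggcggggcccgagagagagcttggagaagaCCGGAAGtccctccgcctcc
The ETS motif stood just before the start of FIS1 and MIEF1, 2 and 13 bases away, and the DNM1L window had no match to it. CCAAT was found in the windows of DNM1L and MIEF1, in the latter on the opposite strand.

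Windows were listed for 9 of the 10 genes, 12 windows in all, and YME1L1 had no entry. ETS matches were found in 3 of the 12 windows, those of MFN1, FIS1 and MIEF1, and in 8.517% of the 35116 windows of the table. The NRF1 motif, GCGCA and GCGC with any 1 base between them on either strand, was found in 2, those of OPA1 and OMA1, and in 5.075% of all windows. CCAAT was found in 7 windows of 5 genes and in 32.01% of all windows, and TATAAA in 1 window and 10.72% of all windows. In the OPA1 window, chr3:193592958-193593207 on the plus strand, the NRF1 match, in capitals, ended 84 bases before the start.
OPA1: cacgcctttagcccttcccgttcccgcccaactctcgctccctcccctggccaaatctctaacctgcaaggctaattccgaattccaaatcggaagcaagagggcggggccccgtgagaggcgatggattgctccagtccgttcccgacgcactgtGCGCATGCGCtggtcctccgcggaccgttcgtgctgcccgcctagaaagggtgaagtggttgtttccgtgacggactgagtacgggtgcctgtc
The GC content of the member windows had a median of 66.0%, from 33.6% to 72.4%, against 58.0% for all windows. These matches describe letters in the windows and were not tied to any change in signal.

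As a group the fission and fusion genes differed about as much between the groups as other probes on the array did. Only 1 of the 18 probes, for DNM1L, passed an adjusted p of 0.05 (limma, Benjamini-Hochberg over 19791 tested probes), where 12% of all tested probes did so, 6.09% with CYGB+ higher and 5.91% with CYGB+ lower. An unadjusted p under 0.05 was reached by 3 probes, for DNM1L, FIS1 and MIEF1, all higher in CYGB+. In 5 of the 18 probes every CYGB+ replicate lay above every NCE replicate, against 18% of tested probes, and in 1 every CYGB+ replicate lay below, against 17% (35% of tested probes in either direction). The median difference was 0.01 over the member probes and 0.01 over all tested probes, and the median size of the difference was 0.18 and 0.20. In bulk RNA, fewer cells of a type and less RNA per cell cannot be told apart.

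**Figure D1:**
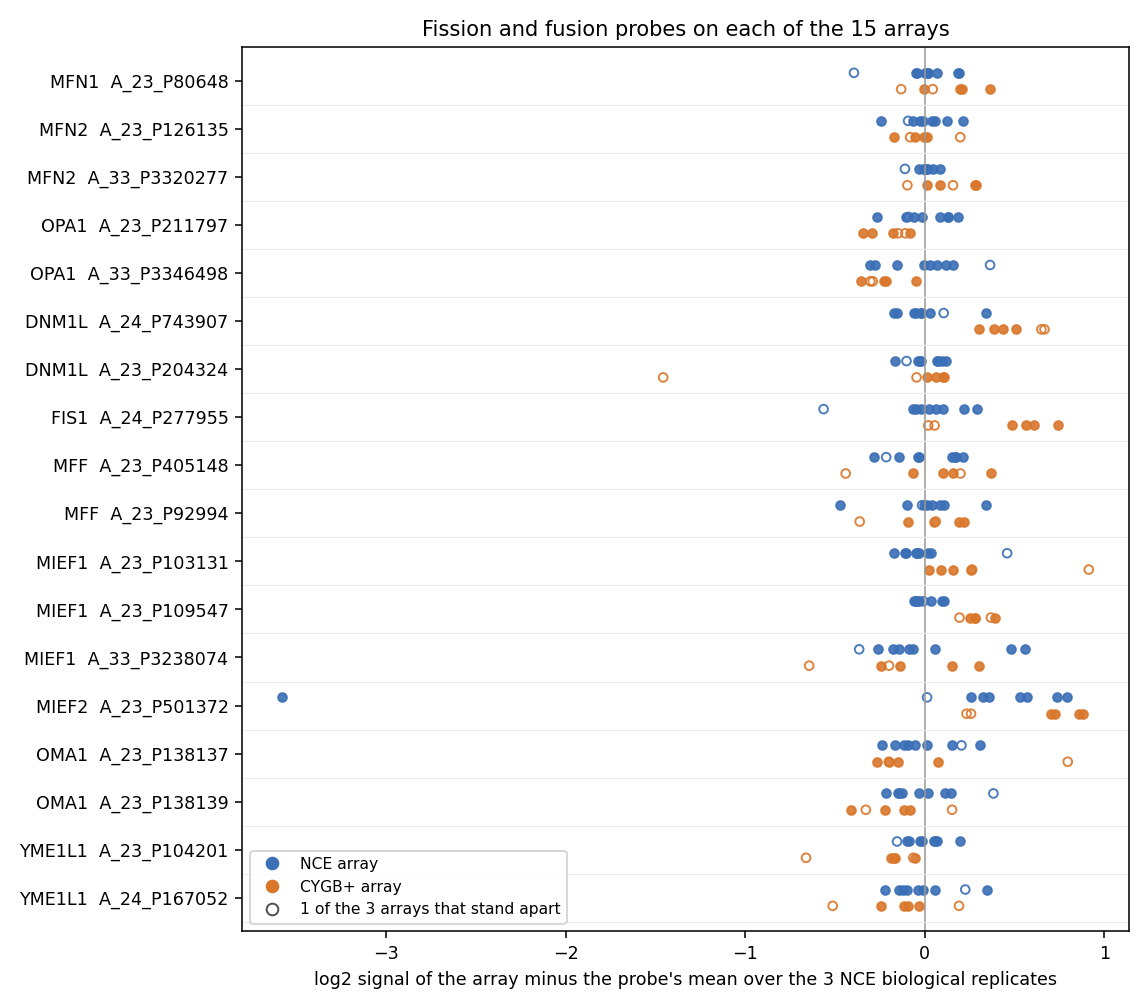
Log2 signal of each of the 18 probes on each of the 15 arrays (x axis), set against that probe's mean over the 3 NCE biological replicates, with NCE arrays in blue, CYGB+ arrays in orange and the 3 arrays that stand apart drawn open. The CYGB+ points lie to the right of most NCE points for DNM1L probe A_24_P743907 and MIEF1 probe A_23_P109547. For FIS1 the filled CYGB+ points do so too, while the open ones lie among the NCE points. In MIEF2, 1 NCE array lies far to the left.

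DNM1L encodes DRP1, the GTPase that constricts the organelle. Its probe A_24_P743907 gave 9.32, 9.10 and 9.27 in NCE and 9.71, 9.70 and 9.76 in CYGB+. All 3 CYGB+ replicates lay above all 3 NCE replicates, and the rise was 0.49 ± 0.10 (SE, 95% interval 0.26 to 0.73, limma, adjusted p = 0.0240), or 1.41-fold. The second DNM1L probe, A_23_P204324, gave 8.87, 8.99 and 8.96 in NCE and 8.22, 9.02 and 8.97 in CYGB+, with a difference of -0.20 ± 0.21 (adjusted p = 0.559). Its groups overlapped, and the low CYGB+ replicate came from 1 array, CYGB+ replicate 1 repeat 1, at 7.48 where repeat 2 of the same replicate gave 8.95. Without that array the second probe differed by 0.04, so the rise seen by the first probe was not seen by the second.

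The first DNM1L probe also differed between slides within the control group. In NCE replicate 1 the array on slide 2 read 9.57 and its 2 arrays on slide 1 averaged 9.19, a shift of 0.38 between arrays of the same biological replicate. With slide as a term in the model the difference was 0.15 ± 0.15 (adjusted p = 0.793), and on slide 2 alone it was 0.15. The part of the slide in this rise was not tested beyond these fits, which rest on 1 NCE array. The adjusted p of the probe (limma) also rose above 0.05 in some fits that left out a single replicate. It was 0.0519 without NCE replicate 1, 0.110 without NCE replicate 2, 0.0893 without NCE replicate 3 and 0.0640 without CYGB+ replicate 3. Without CYGB+ replicate 1 it was 0.0322, and without CYGB+ replicate 2 it was 0.0497.

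FIS1 is a small outer membrane protein that has been tied to the recruitment of DRP1. Its only probe gave 10.94, 10.75 and 10.55 in NCE and 11.13, 11.33 and 11.02 in CYGB+. Every CYGB+ replicate lay above every NCE replicate, and the difference was 0.41 ± 0.14 (95% interval 0.09 to 0.73), which did not pass after adjustment (adjusted p = 0.0939). Among the arrays the lowest NCE value and the 2 lowest CYGB+ values came from the 3 arrays that stand apart, and without those 3 the difference was 0.54 (adjusted p = 0.00737). FIS1 shifted by 0.04 between slides in NCE replicate 1, and on slide 2 alone it differed by 0.20, with slide as a term by 0.26 (adjusted p = 0.828).

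MIEF1 and MIEF2, also called MiD51 and MiD49, are outer membrane adaptors that bind DRP1. MIEF1 probe A_23_P109547 gave 7.75, 7.78 and 7.71 in NCE and 7.97, 8.08 and 8.07 in CYGB+, with no overlap and a difference of 0.29 ± 0.09 (95% interval 0.08 to 0.51, adjusted p = 0.0835). The second, A_23_P103131, gave 9.69, 9.72 and 9.79 in NCE and 10.32, 9.86 and 9.88 in CYGB+, again with no overlap, and differed by 0.28 ± 0.14 (adjusted p = 0.231). The third, A_33_P3238074, gave 7.12, 7.06 and 6.86 in NCE and 6.57, 7.02 and 7.06 in CYGB+, which overlapped, with a difference of -0.13 ± 0.16 (adjusted p = 0.6245). On CYGB+ replicate 1 repeat 1 the third probe had a raw signal of 38.5 against a local background of 37, and with processed signal it differed by -0.44 (adjusted p = 0.384). So the first and second MIEF1 probes separated the groups upwards and the third did not. The slide shift of A_23_P109547 in NCE replicate 1 was 0.14, and its difference was 0.19 with slide as a term (adjusted p = 0.501).

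**Figure D2:**
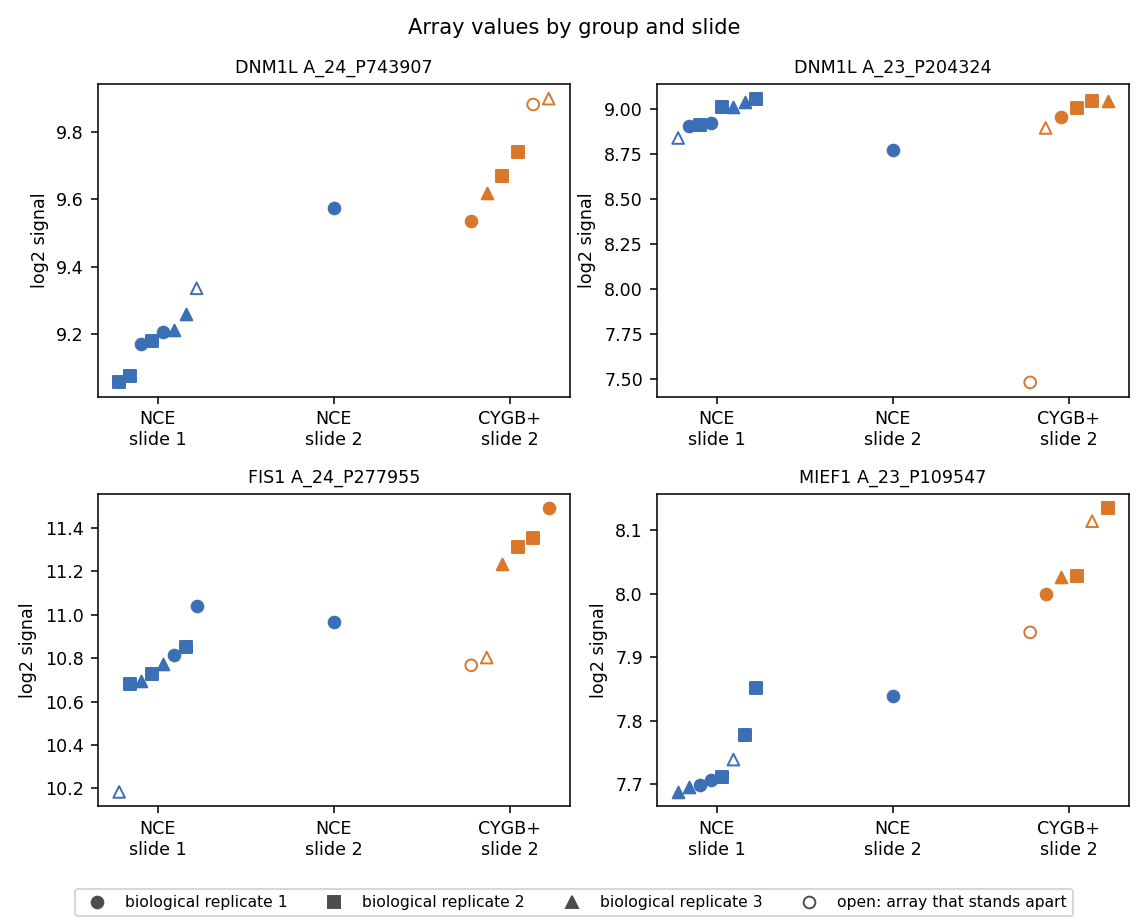
Log2 signal (y axis) of both DNM1L probes, the FIS1 probe and 1 MIEF1 probe on each array, split along the x axis by group and slide, with the marker shape giving the biological replicate and open markers the 3 arrays that stand apart. For DNM1L probe A_24_P743907 the NCE array on slide 2, at 9.57, sits among the CYGB+ arrays and above all NCE arrays on slide 1, and for FIS1, at 10.97, it lies within the range of the NCE arrays and also above the 2 CYGB+ arrays that stand apart. Points within a column are sorted by value.

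MIEF2 had the largest difference of the 18 probes and among the least certain. It gave 10.0, 8.30 and 9.60 in NCE and 9.84, 10.09 and 9.79 in CYGB+, so that the groups overlapped, with a difference of 0.61 ± 0.39 (95% interval -0.29 to 1.51, adjusted p = 0.337). The low NCE replicate came from 1 array, replicate 2 repeat 2, where the spot read 5.72 and was not well above background, while the other arrays of that replicate read 9.56 and 9.62. Leaving out NCE replicate 2 brought the difference to 0.11.

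MFF, the main adaptor that gathers DRP1 at mitochondria, did not separate the groups. Probe A_23_P405148 gave 12.68, 12.94 and 12.87 in NCE and 12.58, 12.96 and 13.12 in CYGB+, a difference of 0.05 ± 0.16 (adjusted p = 0.852). Probe A_23_P92994 gave 9.31, 9.64 and 9.51 in NCE and 9.33, 9.55 and 9.61 in CYGB+, a difference of 0.01 ± 0.13 (adjusted p = 0.967). Both probes overlapped between groups. The second one shifted by -0.44 in NCE replicate 1 from slide 1 to slide 2, and with slide as a term its difference was 0.46 (adjusted p = 0.269).

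The mitofusins MFN1 and MFN2 tether and fuse outer membranes, and neither passed the test. MFN1 gave 8.38, 8.48 and 8.19 in NCE and 8.39, 8.45 and 8.55 in CYGB+, with overlap and a difference of 0.11 ± 0.11 (adjusted p = 0.545). MFN2 probe A_23_P126135 gave 12.91, 13.09 and 13.01 in NCE and 12.88, 12.98 and 13.10 in CYGB+, with overlap and a difference of -0.02 ± 0.11 (adjusted p = 0.933, 95% interval -0.27 to 0.23). MFN2 probe A_33_P3320277 gave 6.41, 6.43 and 6.37 in NCE and 6.49, 6.55 and 6.52 in CYGB+, where the groups did not overlap but the difference, 0.12 ± 0.09, did not pass (adjusted p = 0.415). This probe read near its background, with a raw signal of 35 against a local background of 36 on CYGB+ replicate 1 repeat 1 and 45 against 42 on CYGB+ replicate 2 repeat 2, and its difference was 0.53 with processed signal (adjusted p = 0.0933). For probe A_23_P126135 the interval leaves room for a difference from -0.27 to 0.23.

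OPA1 fuses the inner membrane and shapes the cristae. Probe A_23_P211797 gave 8.66, 8.93 and 8.81 in NCE and 8.58, 8.54 and 8.70 in CYGB+, overlapping, with a difference of -0.19 ± 0.11 (adjusted p = 0.298). Probe A_33_P3346498 gave 7.58, 7.92 and 7.98 in NCE and 7.495, 7.69 and 7.57 in CYGB+, overlapping, with a difference of -0.24 ± 0.13 (adjusted p = 0.274). Both were lower in CYGB+ on the mean and neither passed. On slide 2 alone they differed by 0.07 and 0.06, the other way.

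OMA1 and YME1L1 are the inner membrane proteases that cut OPA1. OMA1 probe A_23_P138137 gave 8.05, 7.90 and 8.16 in NCE and 8.47, 7.83 and 7.84 in CYGB+, a difference of 0.01 ± 0.19 (adjusted p = 0.980). OMA1 probe A_23_P138139 gave 7.90, 7.93 and 8.18 in NCE and 8.04, 7.69 and 7.78 in CYGB+, a difference of -0.17 ± 0.13 (adjusted p = 0.441). The groups overlapped in both, and the sign of the first one depended on CYGB+ replicate 1 repeat 1, without which it was -0.11.

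YME1L1 probe A_23_P104201 gave 10.88, 10.85 and 10.69 in NCE and 10.45, 10.63 and 10.69 in CYGB+, and its difference was -0.22 ± 0.11 (adjusted p = 0.242). YME1L1 probe A_24_P167052 gave 8.57, 8.31 and 8.48 in NCE and 8.14, 8.28 and 8.53 in CYGB+, and its difference was -0.13 ± 0.13 (adjusted p = 0.542). In the first every CYGB+ replicate lay below every NCE replicate, but CYGB+ replicate 3 and NCE replicate 3 were equal to 2 decimals, in the second the groups overlapped, and neither passed the test. With slide as a term both had larger negative differences, -0.40 (adjusted p = 0.319) and -0.46 (adjusted p = 0.288).

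Within genes the probes did not always run together. Of the 7 genes with more than 1 probe, 4 had probes of opposite sign, MFN2, DNM1L, MIEF1 and OMA1. The probes of MFF, OPA1 and YME1L1 had the same sign. The files give each probe 1 RefSeq transcript, which differed between the OPA1 probes and was shared by the probes of each of the other 6 genes, and the position of a probe in it was not analysed here.

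Leaving out the 3 arrays that stand apart raised the number of member probes called from 1 to 3, while the share over all tested probes went to 25.3% (20.6% without CYGB+ replicate 1 repeat 1 alone). In that fit 6 member probes had CYGB+ above NCE without overlap, against 23.1% of tested probes, and 0 had it below, against 19.7%. The 3 called were DNM1L probe A_24_P743907 (0.40, adjusted p = 0.0166), FIS1 (0.54, adjusted p = 0.00737) and MIEF1 probe A_23_P109547 (0.30, adjusted p = 0.0260), all higher in CYGB+. With slide as a term 0 of the 18 were called and 3.61% of all probes, and on slide 2 alone 0 of the 18 and 0.0253%. On slide 2 without its 2 arrays that stand apart, MFF probe A_23_P92994 differed by 0.57. That fit had 1 NCE array, which for this probe shifted by -0.44 from the slide 1 arrays of the same replicate. DNM1L probe A_24_P743907, FIS1 and MIEF1 probe A_23_P109547 had a positive difference in each of these fits, as small as 0.04 for DNM1L on slide 2 without its 2, and their calls changed between fits.

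**Figure D3:**
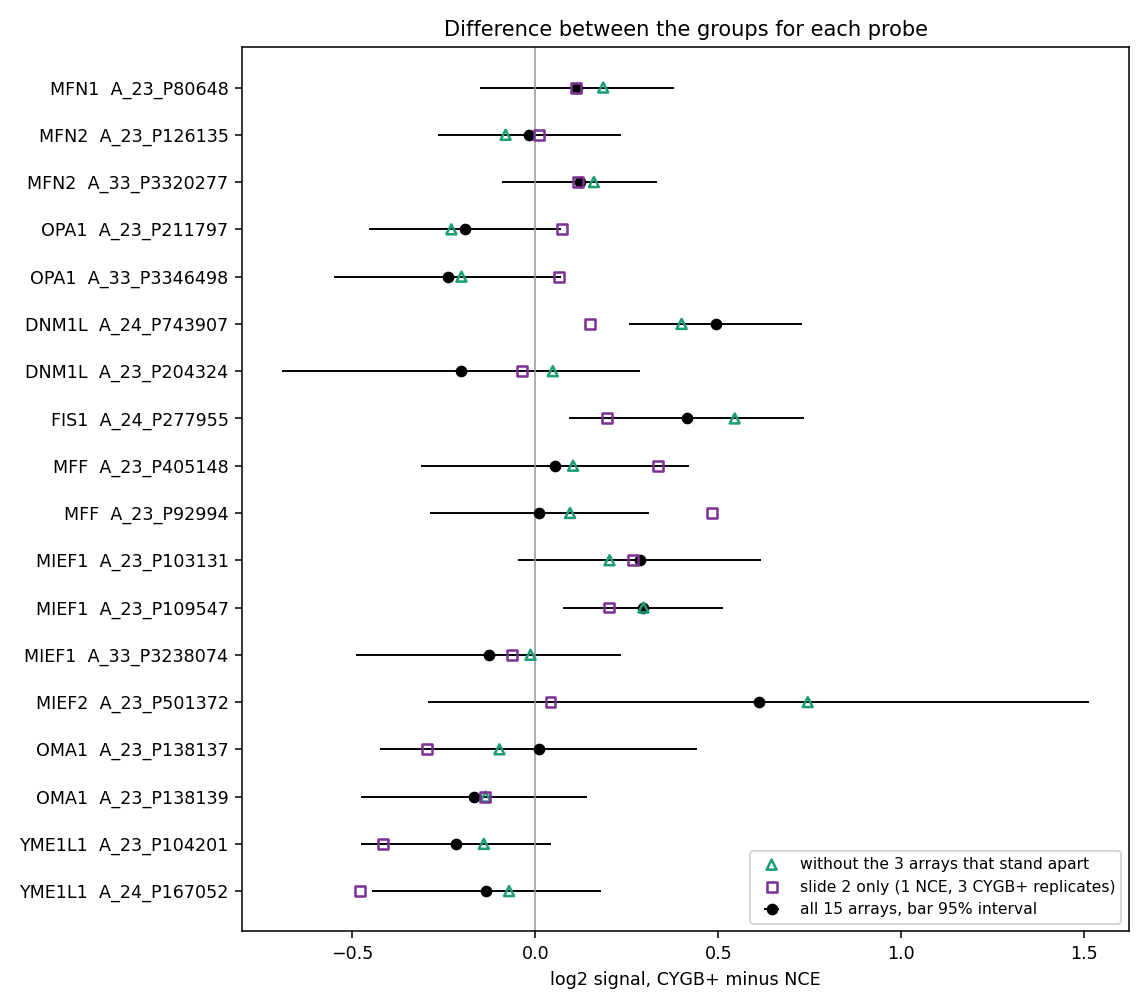
Difference in log2 signal between the groups (x axis, CYGB+ minus NCE) for each of the 18 probes, as black points with 95% intervals from all 15 arrays, green triangles without the 3 arrays that stand apart and purple squares from slide 2 alone. The interval of DNM1L probe A_24_P743907 runs from 0.26 to 0.73 and its slide 2 value, 0.15, falls below it.

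A wider list of 51 genes that work with these members was read through each gene's brightest probe, and 49 could be tested. Of these 5 rose, 2 fell and 42 did not pass, so that 14.3% were called, against 13.7% of the 12132 genes tested this way (6.76% higher and 6.97% lower). The list's median difference was 0.06. With slide as a term 4 of the 49 were called, and on slide 2 alone 0.

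Among 18 tested partners of fission, 1 rose and 1 fell. SPIRE1, which nucleates actin at mitochondria, rose by 1.02 ± 0.12 (adjusted p = 0.00546), from 10.0, 10.27 and 10.12 to 11.30, 10.98 and 11.16. CDK1, the mitotic kinase that phosphorylates DRP1, fell by 0.60 ± 0.12 (adjusted p = 0.0207), from 11.18, 11.23 and 11.27 to 10.55, 10.50 and 10.83. The groups did not overlap in either of these, and the other 16 partners did not pass.

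Among 6 tested fusion and contact factors of the outer membrane, SLC25A46, an outer membrane carrier family protein, rose by 0.82 ± 0.12 (adjusted p = 0.00920), and MIGA2, one of the mitoguardins, rose by 0.54 ± 0.10 (adjusted p = 0.0192). That part of the list was not sorted by whether a gene favours or limits fusion. Among 9 tested inner membrane proteases and scaffolds, AFG3L2, a subunit of the m-AAA protease, rose by 0.68 ± 0.10 (adjusted p = 0.00752), and HTRA2, a serine protease of the intermembrane space, rose by 0.52 ± 0.12 (adjusted p = 0.0364). Of 8 tested genes of the cristae and of MICOS, the complex that holds the cristae junctions, APOOL fell by 0.41 ± 0.10 (adjusted p = 0.0334) and 7 did not pass. None of the 8 tested genes of mitochondrial transport passed (range -0.34 to 0.11).

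**Figure D4:**
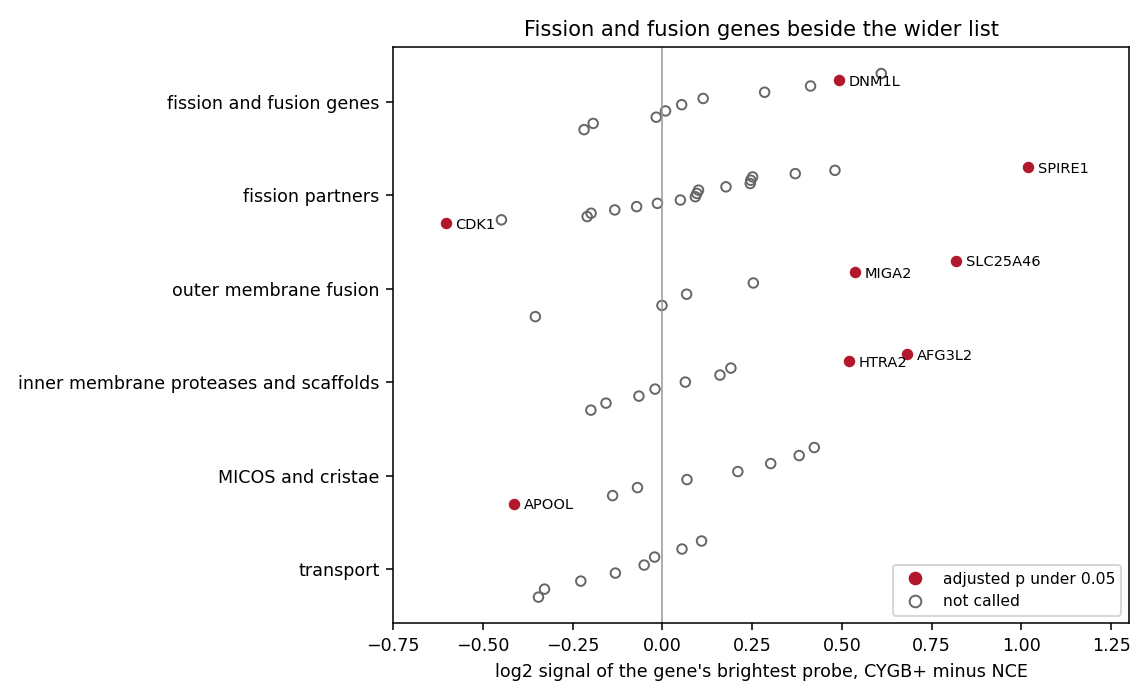
Difference in log2 signal between the groups (x axis, CYGB+ minus NCE) of each gene's brightest probe, with 1 line of points for the fission and fusion genes and 1 for each part of the wider list, filled red where the adjusted p was under 0.05. DNM1L is the filled point of the first line, and SPIRE1, at 1.02, lies furthest to the right.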

How the data were processed

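Microarray data came from 15 human single arrays, 9 NCE and 6 CYGB+, each sample labelled with Cy3 in the labels, although the study's methods give Cy5 for the control. The deposited scanner tables hold spot intensity, made by the authors with Feature Extraction 10.7.3.1 on a design named by hg19. The deposited value table has 15040 entries and holds natural log values. In the non-control entries checked, those bright on every array, these equal the green background-subtracted signal, scaled per array and centred per probe (slope 0.69315 on log2). Its column medians ran from -0.161 to 0.182, and how its probes were chosen and arrays scaled is not given in the sources used here. It was an alternative.

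Green median signal (no mean signal was present, a departure from the design) was corrected by normexp with offset 50 on the local background and quantile normalized, control and outlier-flagged spots were left out, and arrays of a biological replicate were averaged. Probes had to be well above background on every array of a group. CYGB+ was compared with NCE by lmFit and eBayes (limma 3.58.1, R 4.3.3, statmod 1.5.0) with Benjamini-Hochberg adjustment, called at 0.05. Genes were named through RefSeq accessions, and a gene with several probes was read by its brightest for counts of genes. That comparison was unpaired, and a replicate block by the numbers in the labels was only an alternative. Deviations of same-numbered replicates correlated at 0.22, 0.231 and 0.314. Some pairs of different number were positive too (0.214 for NCE 1 with CYGB+ 2, 0.305 for NCE 2 with CYGB+ 3, 0.163 for NCE 3 with CYGB+ 1). The remaining pairs of different number were negative (-0.417 for NCE 2 with CYGB+ 1, -0.501 for NCE 3 with CYGB+ 2, -0.516 for NCE 1 with CYGB+ 3). All members and every probe were named, and from the wider list up to 2 rises and 2 falls of each part, where 1 gene of that list is not reported here and was left out of its counts. Members and lists were chosen with earlier results of these data known. The fit was tested on simulated data. P-values measure only the spread between these samples, and the number of arrays limits precision.

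Alternatives were processed signal, no background correction, 75th percentile scaling, the value table, other filters, slide as a term or slide 2 only, a replicate block, a trended prior, the methods' t-test, the mean of a gene's probes and leaving out each replicate. Leaving out arrays was chosen after seeing the data.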

Additional observations from a re-analysis of the deposited data

Results flagged for a closer look

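In 8 of 36 sets of arrays, each a probe in 1 group, 1 array lay far from the others by Dixon's ratio of the gap to the range. The cutoff is passed in about 1 in 20 sets of independent, normally distributed values. Here the arrays of a set are repeats of 3 biological replicates and the sets share arrays, so the 8 cannot be set against that rate. Of the 8, 7 were on the 3 arrays that stand apart. On CYGB+ replicate 1 repeat 1 the ratio was 0.903 for DNM1L probe A_23_P204324 (lowest), 0.784 for YME1L1 probe A_23_P104201 (lowest), 0.73 for MIEF1 probe A_23_P103131 (highest) and 0.683 for OMA1 probe A_23_P138137 (highest). On NCE replicate 3 repeat 2 it was 0.671 for MIEF1 probe A_23_P103131 (highest), 0.594 for MFN1 (lowest) and 0.583 for FIS1 (lowest). The other was MIEF2 on NCE replicate 2 repeat 2, with a ratio of 0.821 (lowest).

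The red channel, which no label describes, carried signal: on the array with the fewest, 16 of the 18 member probes were well above background in red.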

How the results depend on the processing

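The 1 member gene called, DNM1L by its brightest probe, was lost (0 called) with processed signal, the authors' value table, the mean of a gene's probes and slide as a term. The count became 2 without CYGB+ replicate 1 repeat 1 and without the 3 arrays. The difference of that DNM1L probe, 0.49 in the main fit, was 0.15 on slide 2 only. On slide 2 without its 2 arrays that stand apart it was 0.04. Over all probes the 2374 calls became 1444 of those in the value table, 714 with slide as a term, 5 on slide 2, 801 with the methods' t-test after Benjamini-Hochberg adjustment, 4086 without CYGB+ replicate 1 repeat 1 and 5003 without the 3 arrays. The wider list's 7 became 4 with slide as a term, 0 on slide 2, 11 without CYGB+ replicate 1 repeat 1 and 12 without the 3 arrays. With a replicate block for the pairing, 3124 probes, 1 member gene and 7 wider genes were called, and it changed no member's call. Leaving out each replicate gave 498 to 2429 probes (1163 without NCE replicate 1, 521 without NCE replicate 2, 498 without NCE replicate 3, 1338 without CYGB+ replicate 3), 0 to 1 member genes and 2 to 8 wider genes.

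The signs that turned were all of probes not called with the settings of the report. For 1 of them, MFF probe A_23_P92994, the difference was 0.57 on slide 2 without its 2 arrays that stand apart, a fit with 1 NCE array. OMA1 probe A_23_P138137 (0.01) was -0.14 with processed signal, -0.33 with slide as a term, -0.30 on slide 2, -0.11 without CYGB+ replicate 1 repeat 1, -0.10 without the 3 arrays and -0.42 on slide 2 without its 2. MFN2 probe A_23_P126135 (-0.02) was 0.0067 in the value table, 0.0089 on slide 2 and 0.0035 without NCE replicate 2 repeat 2. OPA1 probe A_23_P211797 (-0.19) was 0.036 with slide as a term, 0.072 on slide 2 and 0.051 on slide 2 without its 2, and A_33_P3346498 was 0.065 and 0.068 in the last 2. DNM1L probe A_23_P204324 (-0.20) was 0.043 without CYGB+ replicate 1 repeat 1, 0.047 without the 3 arrays and 0.23 on slide 2 without its 2, where MIEF1 probe A_33_P3238074 (-0.13) was 0.088. Leaving out each replicate gave -0.35 to 0.057 for DNM1L probe A_23_P204324, -0.062 to 0.21 and -0.077 to 0.094 for MFF probes A_23_P405148 and A_23_P92994, -0.073 to 0.037 for MFN2 probe A_23_P126135, -0.22 to 0.030 for MIEF1 probe A_33_P3238074 and -0.20 to 0.12 for OMA1 probe A_23_P138137. The causes were not tested. DNM1L probe A_24_P743907 was positive in all 23 alternatives (0.04 to 0.63) and called in 14 of them, FIS1 was positive in all 23 (0.20 to 0.54) and called in 2, and MIEF1 probe A_23_P109547 was positive in all 23 and called in 3. Dim probes limit what could be seen: the raw median signal of an array was 45 to 76.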
